A study of Mus musculus with 12 samples.

Results

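The genes described here are 42 genes of epithelial junctions and epithelial polarity, chosen by symbol from a table of 24421 gene symbols: 9 claudins, 9 other tight junction and polarity genes, E-cadherin, P-cadherin and Epcam, 9 desmosome genes, 6 regulators of epithelial genes, 4 membrane proteases and inhibitors, and 2 genes of epithelial trafficking. All 42 symbols were found, and all 42 were among the 15246 genes with enough counts to be tested. Bulk RNA-seq was run on whole lungs taken from wild-type CD-1 mouse fetuses at embryonic day 12.5 and kept in Matrigel drops on a porous insert at an air-liquid interface. The 3 groups hold 4 libraries each. Day 2 compression lungs lay in 20% PEG-HCC, a polyethylene glycol polymer that a two-photon laser had crosslinked around them so as to restrict their growth for 2 days. Day 2 control lungs received the same amount of the solution without crosslinking and were sampled after the same time. Day 0 lungs had spent 1 day in culture and mark the start of the treatment. Whether each library is a separate animal is not stated, and p-values therefore measure the spread between libraries, which may be technical. Compression and control differ in the crosslinked polymer as well as in the restriction of growth, and these cannot be told apart. A Day 2 group and Day 0 likewise differ in time in culture and in exposure to the polymer solution.

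Epithelial cells are joined by adherens junctions, in which E-cadherin of neighbouring cells binds across the gap, by desmosomes, which tie the keratin filaments of cells together, and by tight junctions near the apical surface, where claudins set which ions pass between cells. In the embryonic lung a tube of epithelium branches into loose mesenchyme, and the junction proteins mark the tube. The alveolar epithelium that arises from its tips later uses Cldn18 as a main barrier claudin. Grainyhead-like transcription factors and ETS factors drive junction genes, the Esrp proteins impose the epithelial pattern of splicing, and the Snail and Zeb repressors of mesenchymal cells silence E-cadherin and other junction genes through E-box sequences in their promoters.

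Total counts ran from 13979871 to 33249761 per library, and levels are given as CPM, counts scaled to a common library total, with TMM factors. As a check on tissue, Nkx2-1, the transcription factor of lung epithelium, was above 157 CPM in every library, and Krt5, a keratin of basal cells, was at or under 0.169 CPM. Control replicate 4 held liver transcripts: its albumin level was 638 CPM, against at most 2.23 CPM in any other library. Compression replicates 2 and 3 resembled each other most (mean chi-square per gene 4.09, against 7.51 or more in every other pair within a group) and were counted as 2 samples. Their labels share a number and differ by the letter A or B, whose meaning is not given; if both come from 1 lung, compression values rest on 3 independent samples. Xist, which is transcribed in female cells, stood at 2771 CPM in compression replicate 1, at 2414 and 2237 CPM in control replicates 2 and 3, and at most at 0.579 CPM in the other 9 libraries, all of Day 0 among them. The groups thus held different mixes of sexes, whose part in the results was not tested. Within Day 0, replicates 1 and 2 had lower levels than replicates 3 and 4 of Ehf, Dsp, Grhl2 and Cdh1, and higher levels of Elf3. Lsr shares 43.6% of its exon length with Gm4673 on the opposite strand, and since it is not known whether reads were counted by strand, its counts are uncertain; for the other 41 genes the share was at most 7.31%.

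Most of the 42 genes stood higher at Day 2 than at Day 0 in both culture conditions. Between compression and Day 0, 36 rose and 1 fell at an adjusted p under 0.05 (edgeR's quasi-likelihood test with Benjamini-Hochberg adjustment over all genes), where 26.6% of all genes tested rose and 22.5% fell. Between control and Day 0, 38 rose and 0 fell, where 22.6% of all genes rose and 17.6% fell. The median log2 fold change of the 42 genes was 0.74 under compression and 0.64 in controls, while the median over all genes tested was 0.02 in each comparison. All 4 compression libraries lay above all 4 Day 0 libraries for 36 of the 42 genes (23.5% of all genes), and all 4 control libraries did so for 36 (20.4% of all genes). Rises of at least 2-fold numbered 14 of 42 genes under compression (9.08% of all genes) and 10 of 42 in controls (6.78% of all genes). The 2 comparisons use the same Day 0 libraries. In bulk RNA, more epithelial cells and more RNA per epithelial cell cannot be told apart. Beside these counts, 10 of 10 endothelial markers fell in each comparison, with summed levels of 96.8 to 114.8 CPM under compression and 63.1 to 121 CPM in controls, against 366 to 608 CPM at Day 0; the part of such shifts in the junction genes was not tested.

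**Figure D1:**
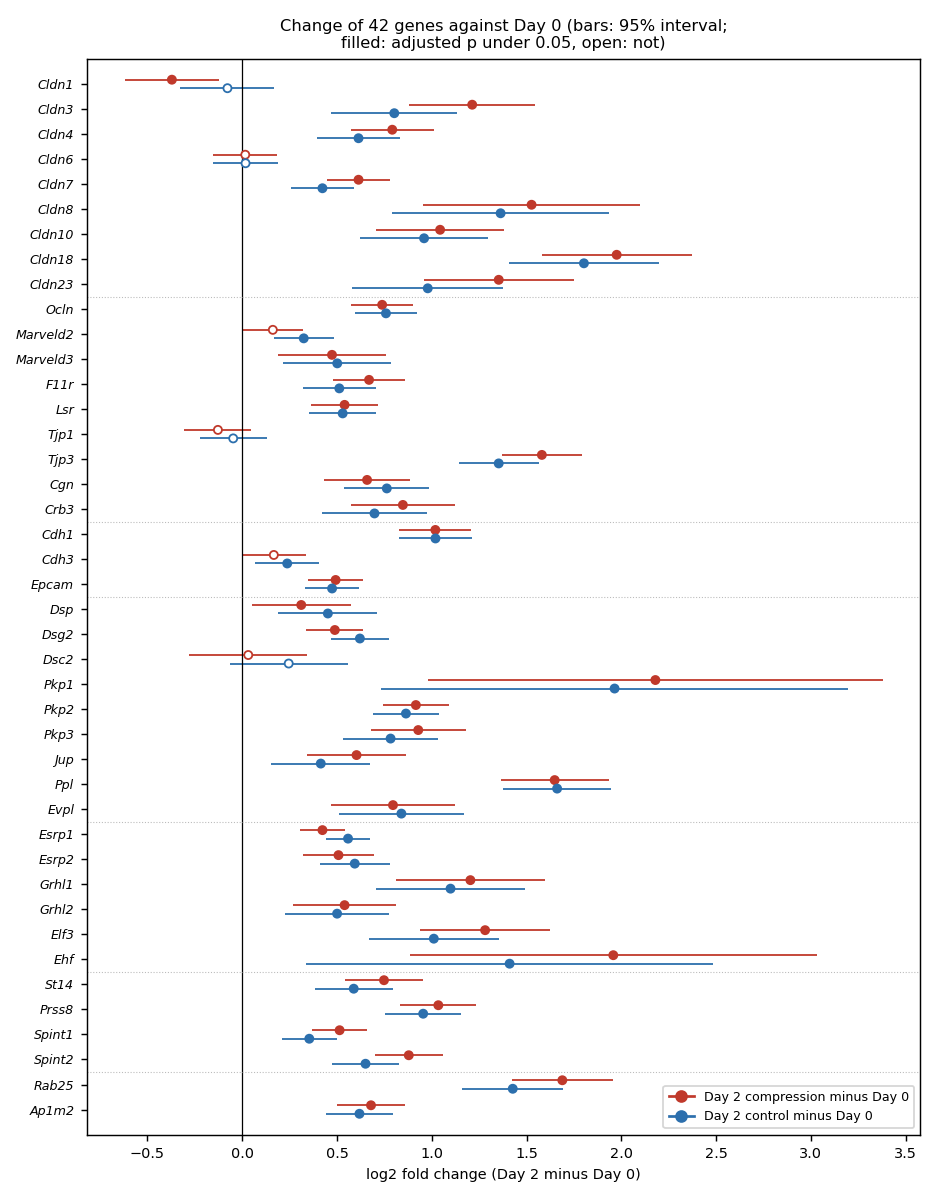
Log2 fold changes of the 42 genes at Day 2 against Day 0, with 95% intervals as bars; compression against Day 0 is the upper and control against Day 0 the lower point of each gene, and open points did not pass an adjusted p of 0.05. Most points lie right of 0, with Pkp1 (2.18 under compression) and Cldn18 (1.98) farthest, while Cldn6 and Tjp1 lie near 0 and Cldn1 lies left of it.

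Promoter windows from RefSeq (GRCm38.p6, 250 bases before to 50 after an annotated start) matched 24 of the 42 genes by symbol, with 32 windows in all. Genes without a window include Cdh1, Grhl2, Esrp1, St14 and Ehf, so the shares below describe the 24 genes and not all 42. The windows were searched on both strands for the E-boxes CACCTG and CAGGTG, which are the 2 strands of the same sequence and are the letters bound by Snail and Zeb factors, and for AACNNGTT, the core bound by Grainyhead-like factors, which reads alike on both strands. An E-box stood in 20 of the 32 windows (62.5%), against 20.2% of 32851 windows over all genes. Counted by gene, 16 of 24 had one (66.7%), against 22.6% of 27025 genes. Median GC content was 60.7% in the windows of the junction genes and 52.7% over all windows. The E-box letters hold more G and C than A and T, and the part of GC content in the higher share was not tested. The windows over all genes were not limited to the genes tested here. AACNNGTT stood in 2 windows, those of Rab25 and Cgn (6.25%, against 4.20% over all). Rab25 and Cgn are shown because they hold this core, Ap1m2 and Crb3 as examples of windows with 4 E-boxes, which a window of Lsr also has, Epcam because it is the highest member per length, and Cldn6 and Cldn18 because they are the claudins whose levels diverged. Sequences run 5′ to 3′ along the strand of the gene, and capitals mark matches to the searched letters.
Rab25 lies at chr3:88548230-88548529, minus strand, Cgn at chr3:94786433-94786732, minus strand, Ap1m2 at chr9:21312284-21312583, minus strand, Crb3 at chr17:57061951-57062250, plus strand, Epcam at chr17:87635729-87636028, plus strand, Cldn6 at chr17:23679115-23679414, plus strand, and the upstream window of Cldn18 at chr9:99717218-99717517, minus strand.
Rab25: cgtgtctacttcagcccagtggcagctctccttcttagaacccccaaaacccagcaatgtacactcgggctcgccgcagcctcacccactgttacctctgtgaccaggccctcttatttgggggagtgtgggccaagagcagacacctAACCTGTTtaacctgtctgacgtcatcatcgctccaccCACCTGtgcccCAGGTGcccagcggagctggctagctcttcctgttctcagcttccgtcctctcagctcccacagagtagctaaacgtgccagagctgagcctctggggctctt
Cgn: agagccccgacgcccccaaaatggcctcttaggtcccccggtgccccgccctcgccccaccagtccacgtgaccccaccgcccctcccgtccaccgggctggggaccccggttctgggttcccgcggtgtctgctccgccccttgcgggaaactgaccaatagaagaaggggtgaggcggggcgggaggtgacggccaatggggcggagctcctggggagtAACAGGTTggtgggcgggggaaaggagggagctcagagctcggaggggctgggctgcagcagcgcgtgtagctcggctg
Ap1m2: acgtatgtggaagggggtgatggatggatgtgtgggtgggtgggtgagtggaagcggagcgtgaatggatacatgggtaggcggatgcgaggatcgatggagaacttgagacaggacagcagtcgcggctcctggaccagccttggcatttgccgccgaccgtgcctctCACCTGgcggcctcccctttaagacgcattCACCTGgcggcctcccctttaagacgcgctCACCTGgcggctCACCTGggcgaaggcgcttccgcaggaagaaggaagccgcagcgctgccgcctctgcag
Crb3: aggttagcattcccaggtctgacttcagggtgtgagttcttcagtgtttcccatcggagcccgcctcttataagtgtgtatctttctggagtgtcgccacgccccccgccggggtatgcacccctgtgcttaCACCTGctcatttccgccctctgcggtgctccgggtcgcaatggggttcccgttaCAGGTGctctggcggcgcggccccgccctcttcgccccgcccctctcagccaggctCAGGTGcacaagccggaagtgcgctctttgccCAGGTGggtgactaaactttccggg
Epcam: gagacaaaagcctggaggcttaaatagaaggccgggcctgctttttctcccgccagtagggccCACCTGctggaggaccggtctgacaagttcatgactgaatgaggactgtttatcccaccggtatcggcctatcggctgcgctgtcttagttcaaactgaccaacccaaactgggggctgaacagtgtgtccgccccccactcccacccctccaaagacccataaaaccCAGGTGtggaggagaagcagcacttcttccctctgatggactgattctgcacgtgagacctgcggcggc
Cldn6: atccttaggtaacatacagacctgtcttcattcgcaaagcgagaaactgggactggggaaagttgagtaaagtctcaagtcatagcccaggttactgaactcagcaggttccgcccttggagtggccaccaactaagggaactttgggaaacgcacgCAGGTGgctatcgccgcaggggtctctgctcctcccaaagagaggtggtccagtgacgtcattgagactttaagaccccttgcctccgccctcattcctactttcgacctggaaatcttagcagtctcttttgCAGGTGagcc
Cldn18: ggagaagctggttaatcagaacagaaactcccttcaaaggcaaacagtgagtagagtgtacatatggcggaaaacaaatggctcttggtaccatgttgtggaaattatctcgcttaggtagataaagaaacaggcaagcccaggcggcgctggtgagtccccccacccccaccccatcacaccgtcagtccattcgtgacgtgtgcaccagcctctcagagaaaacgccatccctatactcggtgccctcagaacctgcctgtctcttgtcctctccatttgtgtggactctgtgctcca
The Ap1m2 window repeats a short stretch that holds an E-box, and the Cldn18 window holds neither motif. A match is a run of letters and shows no binding.

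**Figure D2:**
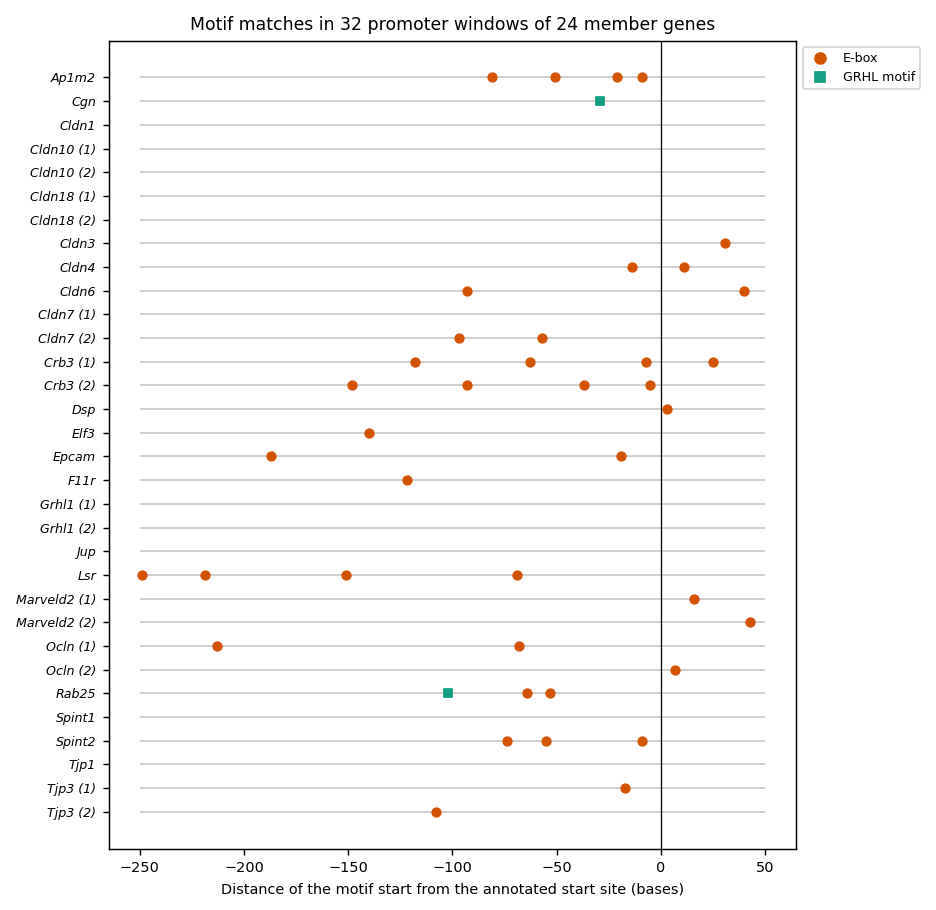
Position of E-boxes (circles) and of the Grainyhead-like core AACNNGTT (squares) in the 32 promoter windows of 24 genes, as distance of the first base of the motif from the annotated start (vertical line); numbers after a name separate windows of 1 gene, some of which overlap. Of the 32 windows, 20 hold an E-box and 2 hold the Grainyhead-like core.

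The claudins fell into 2 kinds: 7 of 9 rose in each comparison with Day 0, and Cldn6 and Cldn1 did not. Cldn18 stood at 313, 502, 525 and 487 CPM under compression, 376, 436, 385 and 426 CPM in controls and 96.9, 94.7, 112 and 160.1 CPM at Day 0. Cldn18, the barrier claudin of alveolar epithelium, was higher in every Day 2 library than in every Day 0 library, and it rose 3.93-fold under compression (log2 fold change 1.98, SE 0.18, adjusted p = 3.9e-06) and 3.49-fold in controls (1.80, SE 0.18, adjusted p = 1.06e-05). Cldn6 stood at 148, 171, 156 and 179 CPM under compression, 147, 188, 161 and 159 CPM in controls and 159.8, 171, 162 and 154 CPM at Day 0. Cldn6, a claudin of embryonic epithelia, overlapped between all 3 groups, with a log2 fold change against Day 0 of 0.02 (95% interval -0.15 to 0.19) under compression and 0.02 (-0.15 to 0.19) in controls, values whose sign changed under other settings. Within a library, the ratio of Cldn18 to Cldn6 in CPM was 2.12 to 3.37 under compression and 2.32 to 2.68 in controls, against 0.555 to 1.04 at Day 0.

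Cldn8 stood at 6.88, 6.50, 6.82 and 4.14 CPM under compression, 8.04, 5.76, 3.70 and 4.09 CPM in controls and 2.40, 2.49, 1.47 and 2.13 CPM at Day 0. Cldn8, a claudin of tight epithelia, rose 2.88-fold under compression (log2 fold change 1.53, SE 0.27, adjusted p = 0.000371) and 2.57-fold in controls (1.36, SE 0.27, adjusted p = 0.00116), with its Day 2 libraries above all Day 0 libraries. Cldn3 stood at 72.8, 97, 85.03 and 125 CPM under compression, 63.8, 69.3, 74.8 and 78.2 CPM in controls and 32.4, 38.9, 46.03 and 46.4 CPM at Day 0. Cldn3, which lies next to Cldn4 on chromosome 5 and is common to many epithelia, rose 2.32-fold under compression (log2 fold change 1.21, SE 0.15, adjusted p = 3.53e-05) and 1.74-fold in controls (0.80, SE 0.15, adjusted p = 0.00112). The others that rose were Cldn4, Cldn7, Cldn10 and Cldn23, with log2 fold changes of 0.61 (Cldn7) to 1.35 (Cldn23) under compression and 0.42 (Cldn7) to 0.98 (Cldn23) in controls. Cldn1 stood at 8.71, 9.62, 10.3 and 9.26 CPM under compression, 12, 11.8, 10.5 and 12.1 CPM in controls and 14.5, 12.9, 11.8 and 9.94 CPM at Day 0. Cldn1, a barrier claudin best known from skin, was the only member that fell: under compression its log2 fold change against Day 0 was -0.37 (SE 0.12, adjusted p = 0.0166), although compression replicate 3 overlapped with Day 0 replicate 4. In controls the value was -0.08 (SE 0.12, adjusted p = 0.625).

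Divided by exon length, Cldn6 made up 26.9 ± 2.14% of the summed level of the 9 claudins under compression and 29.9 ± 1.61% in controls, against 46.7 ± 3.41% at Day 0 (SD, n = 4 each). The share of Cldn18 was 28.6 ± 3.54% under compression and 28.7 ± 0.761% in controls, against 12.8 ± 2.86% at Day 0. Cldn3 came next with 21.1 ± 2.59%, 17.9 ± 1.54% and 16 ± 1.85% in the same order of groups. Cldn4 kept a near-constant share of 10.1 ± 0.463% under compression, 9.97 ± 0.173% in controls and 10.2 ± 0.571% at Day 0. Cldn1, Cldn8 and Cldn23 were each under 1.61% in every library. Shares of a sum are tied to each other, so the lower share of Cldn6 at Day 2 stands beside a Cldn6 level that overlapped between the groups and a higher sum. That sum was 287 to 402 CPM per kilobase under compression and 297 to 340.3 CPM per kilobase in controls, against 188 to 211 CPM per kilobase at Day 0.

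**Figure D3:**
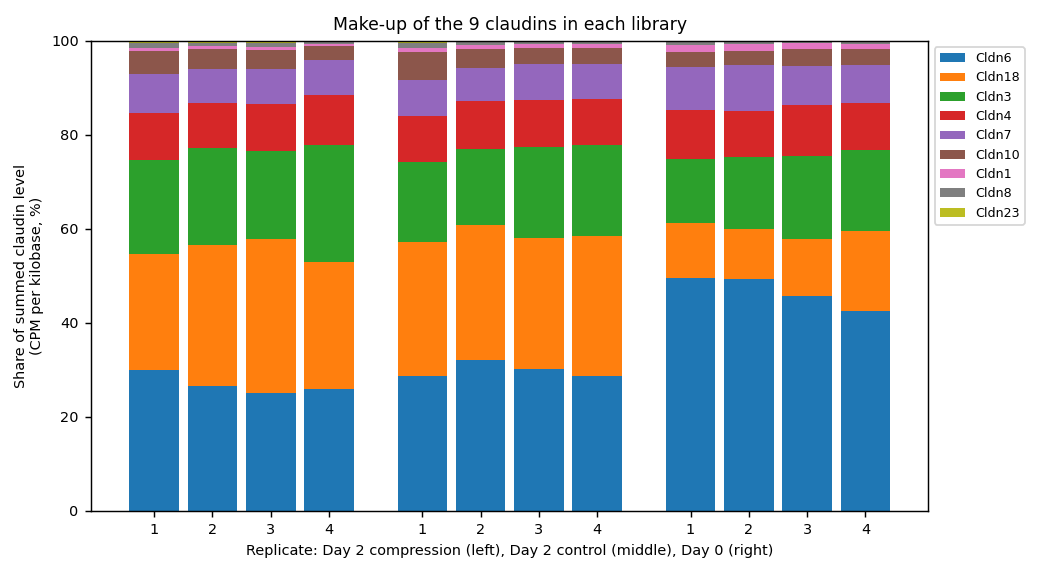
Share of each claudin in the summed level of the 9 claudins (CPM per kilobase of exon, %) in each of the 12 libraries, 4 bars per group. Cldn6 takes 25.1% to 32.1% in the Day 2 libraries and 42.4% to 49.5% at Day 0, and Cldn18 takes 24.5% to 32.7% at Day 2 and 10.6% to 17% at Day 0.

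Of the 9 other tight junction and polarity genes, 7 rose under compression and 8 in controls, each against Day 0. Ocln stood at 45.6, 51.3, 48.9 and 44.9 CPM under compression, 52.7, 48.9, 45.4 and 46.2 CPM in controls and 28.8, 25.5, 28.8 and 30.97 CPM at Day 0. Occludin (Ocln), a membrane protein of the tight junction strand, was higher in every Day 2 library than in every Day 0 library and rose 1.67-fold under compression (log2 fold change 0.74, SE 0.08, adjusted p = 5.23e-06) and 1.69-fold in controls (0.76, SE 0.08, adjusted p = 6.15e-06). Tjp3 stood at 47.8, 54.5, 52.5 and 61.04 CPM under compression, 41.96, 43.9, 47.2 and 51.5 CPM in controls and 15.5, 18.4, 17.8 and 20.2 CPM at Day 0. Tjp3, the scaffold ZO-3, had the largest rise of the 9, 2.99-fold under compression (log2 fold change 1.58, SE 0.10, adjusted p = 1.13e-07) and 2.56-fold in controls (1.35, SE 0.10, adjusted p = 5.36e-07). Tjp1 stood at 287, 288, 299 and 287 CPM under compression, 319, 297, 312 and 299 CPM in controls and 293, 270.2, 334 and 372 CPM at Day 0. Its relative Tjp1, the scaffold ZO-1, which is also present in other cell types, did not pass the test: its log2 fold change was -0.13 under compression (SE 0.08, adjusted p = 0.213) and -0.05 in controls (SE 0.08, adjusted p = 0.679). Without Day 0 replicate 2, the lowest Tjp1 library, the compression value was -0.20 with an adjusted p of 0.0439, and without Day 0 replicate 4, the highest, the control value was 0.02. The ratio of Tjp3 to Tjp1 in CPM was 0.167 to 0.213 under compression and 0.131 to 0.172 in controls, against 0.0530 to 0.0682 at Day 0.

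At the contacts where 3 cells meet, tricellulin (Marveld2) averaged 23.1 ± 0.850 CPM under compression, 25.9 ± 1.95 CPM in controls and 20.6 ± 1.16 CPM at Day 0 (SD, n = 4 each). It rose in controls (log2 fold change 0.32, SE 0.07, adjusted p = 0.00323), while the value under compression was 0.16 (SE 0.07, adjusted p = 0.0842). Lsr, the receptor that recruits tricellulin, averaged 67.1 ± 5.58 CPM under compression, 66.6 ± 3.71 CPM in controls and 46.1 ± 4.63 CPM at Day 0, and the test called it higher in both Day 2 groups. Marveld3, a relative of tricellulin, rose to 11.5 ± 0.405 CPM under compression and 11.7 ± 1.10 CPM in controls, against 8.24 ± 1.69 CPM at Day 0. The adhesion molecule JAM-A (F11r) rose to 105 ± 12.6 CPM under compression and 94 ± 4.35 CPM in controls, against 65.9 ± 5.84 CPM at Day 0. Cingulin (Cgn), which links tight junctions to the actomyosin belt, rose by 0.66 (SE 0.10) under compression and 0.76 (SE 0.10) in controls on the log2 scale. The apical polarity gene Crb3 rose by 0.85 (SE 0.13) and 0.70 (SE 0.13) in the same comparisons.

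E-cadherin (Cdh1), the main adhesion molecule of epithelial adherens junctions, rose about as far in both Day 2 groups. Cdh1 stood at 429, 435, 441 and 420.0 CPM under compression, 471, 442, 411 and 401 CPM in controls and 186, 190.2, 229 and 246 CPM at Day 0. All 8 Day 2 libraries lay above all Day 0 libraries, and the rise was 2.03-fold under compression (log2 fold change 1.02, SE 0.09, adjusted p = 1.51e-06) and 2.03-fold in controls (1.02, SE 0.09, adjusted p = 2.26e-06). Epcam stood at 298, 312, 313 and 305 CPM under compression, 328, 322, 286 and 276 CPM in controls and 209.5, 204, 229.5 and 229 CPM at Day 0. Epcam, a membrane glycoprotein of epithelial cells, also lay above Day 0 in every Day 2 library and rose 1.41-fold under compression (log2 fold change 0.49, SE 0.07, adjusted p = 4.91e-05) and 1.39-fold in controls (0.47, SE 0.07, adjusted p = 9.48e-05). P-cadherin (Cdh3), which lies beside Cdh1 on chromosome 8, averaged 74.7 ± 6.08 CPM under compression, 78.5 ± 6.82 CPM in controls and 66.6 ± 3.46 CPM at Day 0. Its log2 fold change was 0.17 under compression (adjusted p = 0.0915), and the rise in controls was 0.24 (adjusted p = 0.0263). The control call of Cdh3 was lost without Day 0 replicate 1 or 3 or without control replicate 2, 3 or 4 (adjusted p = 0.1, 0.089, 0.0865, 0.111 and 0.0781), and without compression replicate 1 the compression value passed (0.20, adjusted p = 0.0432). The ratio of Cdh1 to Cdh3 in CPM was 5.30 to 6.52 under compression and 4.88 to 6.87 in controls, against 2.76 to 3.54 at Day 0.

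Of the 9 desmosome genes, 8 rose in each comparison with Day 0, and Dsc2 did not. Ppl stood at 35.2, 41.3, 40.2 and 40.9 CPM under compression, 42.5, 41, 37.9 and 37.6 CPM in controls and 9.58, 10.8, 13.1 and 16.4 CPM at Day 0. Periplakin (Ppl), a plakin that links junctions to keratin filaments, lay above all Day 0 libraries in every Day 2 library and rose 3.13-fold under compression (log2 fold change 1.65, SE 0.13, adjusted p = 8.03e-07) and 3.16-fold in controls (1.66, SE 0.13, adjusted p = 1.11e-06). Its partner envoplakin (Evpl) rose by 0.80 (SE 0.15) under compression and 0.84 (SE 0.15) in controls on the log2 scale. Dsp stood at 164, 141, 139 and 144 CPM under compression, 192, 164, 148 and 144 CPM in controls and 100.3, 100.4, 129 and 144 CPM at Day 0. Desmoplakin (Dsp), the main linker of desmosomes to keratin, rose in controls (log2 fold change 0.45, SE 0.12, adjusted p = 0.00921). Its rise under compression was at the edge of the threshold (log2 fold change 0.31, SE 0.12, adjusted p = 0.0467), 2 compression libraries lay below the highest Day 0 library, and the call was lost in 7 of 8 fits that left out a library, all but the one without Day 0 replicate 4 (adjusted p from 0.0613 to 0.181). It was also lost with DESeq2 size factors, no low-count filter, quality weights, only the 8 libraries compared, a replicate block, or replicates 2 and 3 summed (adjusted p from 0.0524 to 0.0791).

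The plakophilins, which bind desmosomal cadherins at the membrane, rose together with plakoglobin (Jup), a protein shared by desmosomes and adherens junctions. Pkp2 averaged 21.5 ± 1.32 CPM under compression, 20.8 ± 1.5 CPM in controls and 11.4 ± 0.638 CPM at Day 0, and Pkp3 averaged 18.3 ± 2.36 CPM under compression, 16.5 ± 1.09 CPM in controls and 9.61 ± 1.28 CPM at Day 0. Jup averaged 124 ± 19.2 CPM under compression, 109 ± 8.34 CPM in controls and 81.8 ± 12.7 CPM at Day 0, with a control call that was lost without Day 0 replicate 1 (adjusted p = 0.0533) or control replicate 2 (adjusted p = 0.0551). Pkp1, a plakophilin of stratified epithelia, had the largest log2 fold changes of the 42 genes on very few reads: 12, 10, 20 and 18 counts under compression, 18, 15, 7 and 7 counts in controls, and 5, 3, 0 and 2 counts at Day 0. Its values were 2.18 (SE 0.56, adjusted p = 0.00538) under compression and 1.96 (SE 0.57, adjusted p = 0.0143) in controls, the control call was lost without Day 0 replicate 4 (adjusted p = 0.0536), and the 0 in Day 0 replicate 3 allows up to 3 counts, or 0.138 CPM. Among desmosomal cadherins, Dsg2 rose to 71.03 ± 4.33 CPM under compression and 77.8 ± 5.67 CPM in controls, against 50.6 ± 2.86 CPM at Day 0. Dsc2 averaged 16.8 ± 1.88 CPM under compression, 19.4 ± 2.01 CPM in controls and 16.5 ± 3.60 CPM at Day 0 and did not pass in either comparison (adjusted p = 0.874 under compression and 0.196 in controls).

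All 6 regulators of epithelial genes rose in both comparisons with Day 0. Grhl2 stood at 72.2, 84.3, 83.9 and 73.4 CPM under compression, 85.3, 71.5, 72.8 and 75.7 CPM in controls and 44.3, 42.99, 64.4 and 63.5 CPM at Day 0. Grhl2, a Grainyhead-like factor that activates junction genes, lay above all Day 0 libraries in every Day 2 library and rose 1.45-fold under compression (log2 fold change 0.54, SE 0.13, adjusted p = 0.00316) and 1.42-fold in controls (0.50, SE 0.13, adjusted p = 0.00657). Grhl1, its relative, rose by 1.20 (SE 0.18) under compression and 1.10 (SE 0.18) in controls on the log2 scale. Esrp1 stood at 119, 120.4, 127 and 117 CPM under compression, 136, 130.3, 134 and 129.9 CPM in controls and 86.5, 84.6, 92.5 and 96.6 CPM at Day 0. The splicing regulator Esrp1 rose 1.34-fold under compression (log2 fold change 0.42, SE 0.05, adjusted p = 3.28e-05) and 1.47-fold in controls (0.56, SE 0.05, adjusted p = 5.37e-06), and its relative Esrp2 rose by 0.51 and 0.59 on the log2 scale in the same comparisons.

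Ehf stood at 26.5, 22.2, 21.96 and 11.5 CPM under compression, 19.7, 12.8, 12.2 and 11.3 CPM in controls and 1.93, 1.42, 6.83 and 9.97 CPM at Day 0. Ehf, an ETS factor of epithelia, spread widely within each group, its Day 0 replicates 1 and 2 being far under replicates 3 and 4. It rose 3.88-fold under compression (log2 fold change 1.96, SE 0.49, adjusted p = 0.00626) and 2.66-fold in controls (1.41, SE 0.49, adjusted p = 0.0385). The control call of Ehf was lost when Day 0 replicate 1 or 2 or control replicate 1, 2 or 3 was left out (adjusted p = 0.0738, 0.0651, 0.109, 0.0602 and 0.0566), and with no low-count filter, only the 8 libraries compared or a replicate block (adjusted p = 0.073, 0.0665 and 0.0916). Elf3, another epithelial ETS factor, averaged 37.3 ± 3.71 CPM under compression, 30.9 ± 0.948 CPM in controls and 15.4 ± 4.44 CPM at Day 0 and rose by 1.28 (SE 0.16) under compression and 1.01 (SE 0.16) in controls on the log2 scale.

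The 4 genes of the matriptase pathway rose in both comparisons, and every Day 2 library lay above every Day 0 library for each of them. St14 stood at 106, 132, 128 and 145 CPM under compression, 102, 122, 118 and 116 CPM in controls and 68.3, 73.7, 77.8 and 84.8 CPM at Day 0. St14 encodes matriptase, a membrane serine protease that matures epithelial barriers, and it rose 1.68-fold under compression (log2 fold change 0.75, SE 0.10, adjusted p = 2.93e-05) and 1.503-fold in controls (0.59, SE 0.10, adjusted p = 0.000283). Spint2 stood at 173, 212, 193 and 232 CPM under compression, 166, 178, 177 and 171 CPM in controls and 99.7, 121, 111 and 109.8 CPM at Day 0. Spint2, a Kunitz inhibitor of matriptase and prostasin, rose 1.84-fold under compression (log2 fold change 0.88, SE 0.08, adjusted p = 2.95e-06) and 1.57-fold in controls (0.65, SE 0.08, adjusted p = 4.44e-05). Prostasin (Prss8), a membrane-anchored protease that acts with matriptase and on the epithelial sodium channel, averaged 74.3 ± 9.40 CPM under compression, 70.3 ± 4.76 CPM in controls and 36.3 ± 2.92 CPM at Day 0. Spint1, the other Kunitz inhibitor, had the smallest rise of the 4, 0.51 (SE 0.07) under compression and 0.35 (SE 0.07) in controls on the log2 scale. The ratio of Prss8 to Spint1 in CPM was 1.07 to 1.25 under compression and 1.22 to 1.30 in controls, against 0.792 to 0.858 at Day 0.

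Both trafficking genes rose. Rab25 stood at 19.5, 23.5, 24.2 and 27.3 CPM under compression, 20.2, 20.2, 20.1 and 18.2 CPM in controls and 5.69, 7.26, 8.02 and 8.24 CPM at Day 0. Rab25, a small GTPase of recycling endosomes in epithelial cells, rose 3.22-fold under compression (log2 fold change 1.69, SE 0.12, adjusted p = 4.05e-07) and 2.69-fold in controls (1.43, SE 0.12, adjusted p = 2.26e-06), and no Day 2 library overlapped with Day 0. Ap1m2, the subunit of the AP-1B adaptor that sorts proteins to the basolateral membrane, averaged 38.6 ± 2.31 CPM under compression, 37.01 ± 3.36 CPM in controls and 24.1 ± 1.99 CPM at Day 0, with log2 fold changes of 0.68 (SE 0.08) under compression and 0.62 (SE 0.08) in controls.

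**Figure D4:**
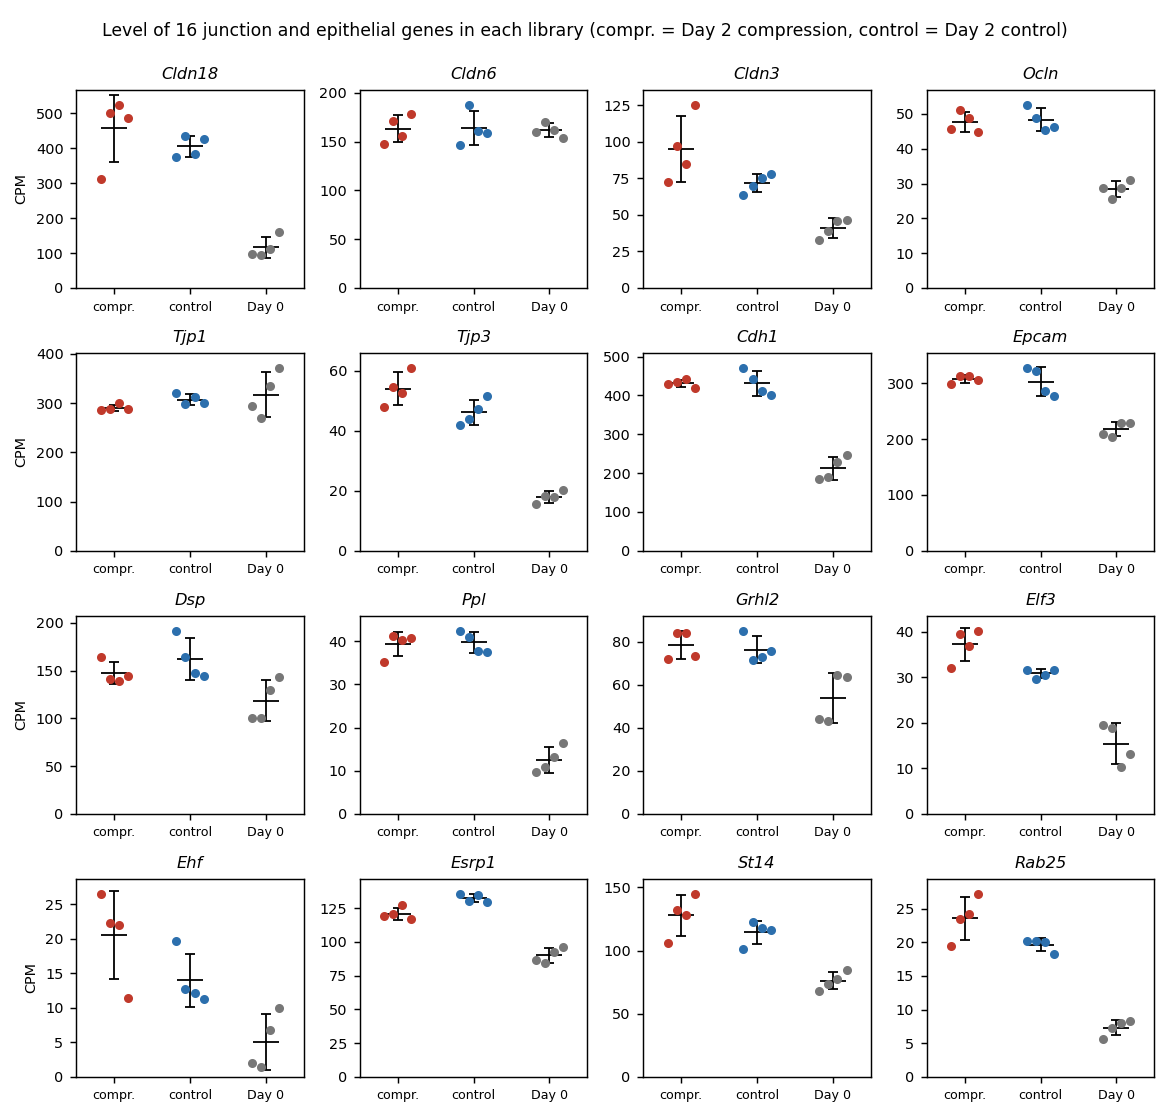
Level (CPM, linear axes from 0) of 16 of the genes in each library; points are libraries, horizontal lines are group means and bars are SD (n = 4). Day 2 compression stands at the left, Day 2 control in the middle and Day 0 at the right of each panel; Cldn6 and Tjp1 overlap between the groups, and Cdh1 stands at 420 to 441 CPM under compression and 401 to 471 CPM in controls, against 186 to 246 CPM at Day 0.

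Levels of different genes were compared per kilobase of exon (CPM divided by the exon length in GENCODE M21). Epcam was the highest of the 42 in all 3 groups, with 139.9 ± 3.30 CPM per kilobase under compression, 138 ± 11.7 in controls and 99.4 ± 6.01 at Day 0. Cldn18 (103 ± 21.8), Cldn6 (94.99 ± 8.12) and Cdh1 (94.3 ± 1.98) followed under compression and did not differ beyond their spread. In controls Cldn6 (95.1 ± 10.1), Cdh1 (94.3 ± 6.97) and Cldn18 (91.0 ± 6.69) were likewise within their spread. At Day 0 the second place was held by Cldn6 (94.0 ± 4.07), within its spread of Epcam, and Cdh1 (46.5 ± 6.48), Tjp1 (40.6 ± 5.74) and Cldn3 (32.5 ± 5.27) came next, with Cldn18 (26.0 ± 6.83) in place 6. The lowest in each group was Pkp1, and Cldn23 was the next lowest.

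Compression against control at Day 2 asks how the crosslinked, growth-restricting polymer changes the lung. None of the 42 genes passed an adjusted p of 0.05 with edgeR, as was so for all 15246 genes (0%), and the lowest adjusted p of a member was 0.376. At an unadjusted p under 0.05 there were 10 of 42 genes, of which 7 were higher and 3 lower under compression. Over all genes the share was 12.1% (6.73% higher and 5.33% lower). The count of 10 varied with single libraries. It was 2 without control replicate 1, 3 without compression replicate 2, 3 without compression replicate 4 and 14 without compression replicate 1. Over all genes these fits gave 1361, 1113, 1368 and 3078 genes at that level, against 1839 with all libraries. With compression replicates 2 and 3 summed there were 5 of the 42 and 1183 over all genes. Of the 42 values 26 were positive, against 51% of all genes, and the median was 0.07, against 0.00392 over all genes. Groups did not overlap for 4 genes: Cldn23 and Elf3 were higher in all compression libraries (3.07% of all genes), and Cldn1 and Esrp1 were lower in all (2.7% of all genes). DESeq2 called 0 of the 42 (9 at an unadjusted p under 0.05, and 71 genes called in all).

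**Figure D5:**
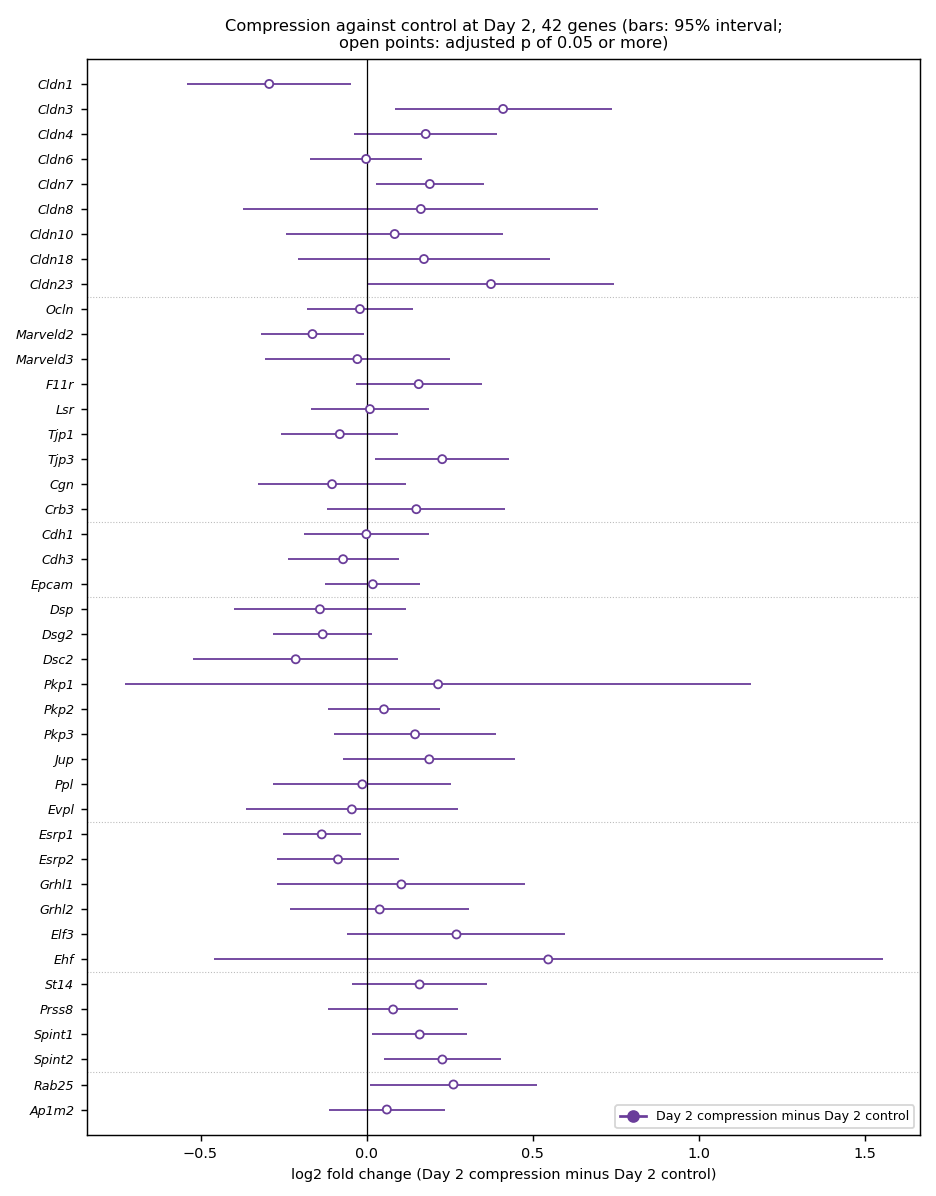
Log2 fold change of the 42 genes between compression and control at Day 2, with 95% intervals as bars and a vertical line at 0; all points are open because none passed an adjusted p of 0.05. Ehf and Pkp1 have the widest intervals, and the values run from -0.29 (Cldn1) to 0.55 (Ehf).

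The 6 members with the smallest p were Spint2, Cldn3, Cldn1, Cldn7, Esrp1 and Tjp3. For Spint2, whose levels are given above, the log2 fold change was 0.23 (95% interval 0.05 to 0.41, adjusted p = 0.376), and for Cldn3 it was 0.41 (0.08 to 0.74, adjusted p = 0.376). Both had their highest value in compression replicate 4 and overlapped with the controls, and without that library the value of Cldn3 was 0.25. Rn45s, a ribosomal RNA precursor, took 5.64% of the counts of that library, against 0.553% to 2.67% in the other compression libraries and 0.641% to 1.95% in controls, and its part was not tested. Cldn1 was lower in every compression library (8.71 to 10.3 CPM) than in every control (10.5 to 12.1 CPM), with a value of -0.29 (-0.54 to -0.05, adjusted p = 0.38). Cldn7 stood at 46.1, 54.2, 52.2 and 59.2 CPM under compression, 45.1, 46.9, 47.3 and 46.3 CPM in controls and 33.6, 38.2, 33.4 and 33.4 CPM at Day 0. The values of Cldn7, a claudin found along the basolateral membrane as well as at the junction, gave a difference of 0.19 (0.03 to 0.35, adjusted p = 0.38). Its highest value too was that of compression replicate 4, and without that library the difference was 0.13. Esrp1 differed by -0.14 (-0.25 to -0.02, adjusted p = 0.38), the narrowest interval of the 6, and Tjp3 by 0.23 (0.03 to 0.43, adjusted p = 0.386). Tjp3 was also highest in compression replicate 4, at 61.04 CPM.

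With quality weights for single libraries (limma-voom), 9 of the 42 genes passed and were higher under compression, in a fit that called 1913 genes: F11r, Spint2, Cldn7, Rab25, Cldn23, Cldn3, Elf3, Tjp3 and Spint1, with log2 fold changes of 0.16 to 0.46 and adjusted p from 0.0178 to 0.0452. When compression replicates 2 and 3 were summed into 1 sample in that fit, 0 of the 42 passed and 191 genes were called.

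For other members given in every library the intervals bound how far the groups could differ. Of the 6 above, the intervals of Spint2, Cldn3, Cldn7 and Tjp3 lay over 0, and those of Cldn1 and Esrp1 under 0. All intervals count compression replicates 2 and 3 as separate samples. Cdh1 averaged 431 ± 9.06 CPM under compression and 432 ± 31.9 CPM in controls, and the 95% interval of its log2 difference was -0.19 to 0.19. For Epcam the interval was -0.12 to 0.16, for Cldn6 -0.17 to 0.17, for Ocln -0.18 to 0.14, and for Tjp1 -0.26 to 0.10. It was wider for Dsp (-0.40 to 0.12), Grhl2 (-0.23 to 0.31) and St14 (-0.04 to 0.36). Cldn18 was more variable, with an interval of -0.21 to 0.55, its lowest value under compression being that of replicate 1. Over all genes tested, 6.73% were higher and 5.33% lower under compression at an unadjusted p under 0.05. Of 15 lung epithelium markers, 5 were higher and 0 lower at that level. Their summed level was 2341 to 2957 CPM under compression and 2095 to 2328 CPM in controls, with no overlap. A large part of that sum was Sftpc, at 677, 1194, 1230 and 968 CPM under compression and 460, 466, 631 and 740 CPM in controls. Sftpc itself overlapped between the groups, and the sum without it was not tested. Nkx2-1 overlapped too (214 to 264 CPM under compression and 234 to 247 CPM in controls). Of the 15 values, 9 were positive and 6 negative. Of 10 leukocyte markers, 8 were higher under compression at an unadjusted p under 0.05 (6.73% of all genes). Of 8 mesothelial markers, 5 were lower and 2 higher at that level (5.33% and 6.73% of all genes). None of these markers passed the adjusted threshold. Summed leukocyte markers stood at 345 to 446 CPM under compression and 197 to 411 CPM in controls. The value of 411 CPM was that of control replicate 4, the library with liver transcripts. Control replicates 1, 2 and 3 stood at 197, 228 and 242.5 CPM, under every compression library. Summed mesothelial markers stood at 293 to 301 CPM under compression and 274 to 407 CPM in controls. The part of these cell types in the values of the junction genes was not tested.

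Other genes of the junction machinery were read in the same fit. Of 6 further desmosome-linked genes tested, among them Krt8 and Krt18 of the lung epithelium list, 6 rose in each comparison with Day 0. Among them Perp, a desmosomal membrane protein, averaged 41.1 CPM under compression and 29 CPM in controls, against 9.48 CPM at Day 0, and the simple-epithelium keratins Krt8 (165 CPM under compression and 155 CPM in controls, against 80.9 CPM at Day 0) and Krt18 (162 CPM under compression and 149.8 CPM in controls, against 83.7 CPM at Day 0) also rose. Of 15 adherens junction partners, 6 rose and 0 fell in each comparison (40% and 0%), with medians of 0.04 under compression and 0.14 in controls. Over all genes tested, 26.6% rose and 22.5% fell under compression, and 22.6% rose and 17.6% fell in controls. Nectin-4, listed as Pvrl4, rose by 1.78 under compression and 1.61 in controls on the log2 scale, and vinculin (Vcl), which links junctions to actin, rose by 0.51 and 0.54.

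Genes of the polarity complexes went both ways: of 22, 6 rose and 7 fell under compression, and 8 rose and 5 fell in controls. These were 27.3% and 31.8% of the list under compression, and 36.4% and 22.7% in controls. Over all genes tested, 26.6% rose and 22.5% fell under compression, and 22.6% rose and 17.6% fell in controls. A mix of rises and falls was thus not particular to this list. Prkcz, an atypical protein kinase C of the apical Par complex, averaged 28.7 CPM under compression and 26.5 CPM in controls, against 12.9 CPM at Day 0. Of its partners, Pard6b averaged 43.2 CPM under compression and 44.3 CPM in controls, against 24.6 CPM at Day 0 and rose, while Pard6g averaged 51.6 CPM under compression and 52.6 CPM in controls, against 76.9 CPM at Day 0 and fell. Of 17 other tight junction genes, 7 rose and 5 fell under compression (41.2% and 29.4%), and 6 rose and 5 fell in controls (35.3% and 29.4%). Ildr1, a relative of Lsr at tricellular contacts, rose by 1.69 and 1.42 on the log2 scale, and the scaffold gene Mpdz fell by 0.72 under compression. Of 7 other claudin-family genes, 3 rose and 1 fell under compression (42.9% and 14.3%), and 2 rose and 1 fell in controls (28.6% and 14.3%). The one that fell was Cldn5, the claudin of endothelium, with 6.77 CPM under compression and 5.36 CPM in controls, against 35.3 CPM at Day 0, and Cldn15 rose to 3.57 CPM under compression and 4.31 CPM in controls, against 1.42 CPM at Day 0. No gene of these lists passed between compression and control.

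Of 11 mesenchymal cadherins and factors of the epithelial to mesenchymal transition, 6 fell and 1 rose under compression against Day 0 (54.5% and 9.09%). In controls 8 fell and 1 rose (72.7% and 9.09%). Over all genes tested, 22.5% fell and 26.6% rose under compression, and 17.6% fell and 22.6% rose in controls. The highest log2 fold change of the list was 0.62 under compression and 0.30 in controls. The repressor Zeb1 averaged 36 CPM under compression and 40.8 CPM in controls, against 60.3 CPM at Day 0. Snai2, a Snail factor, averaged 102 CPM under compression and 112 CPM in controls, against 173 CPM at Day 0. Binding of Zeb1 or Snai2 to the promoters shown above was not measured. Whether their lower levels bear on the junction genes was not tested. Twist2 averaged 5.75 CPM under compression and 4.74 CPM in controls, against 12.2 CPM at Day 0, and vimentin (Vim), the intermediate filament of mesenchyme, fell by 0.83 in controls on the log2 scale. The endothelial markers fell in the same comparisons, and their part in these values was not tested.

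Markers of the cell types in the explant moved in different directions beside the junction genes. Over all genes tested, 26.6% rose and 22.5% fell under compression, and 22.6% rose and 17.6% fell in controls. Of 15 lung epithelium markers, 8 rose and 2 fell in each comparison with Day 0 (53.3% and 13.3%). Their medians were 0.48 under compression and 0.51 in controls. The lowest log2 fold change among them was -0.38 under compression and -0.82 in controls. Nkx2-1 stood at 214, 241, 225 and 264 CPM under compression, 239.8, 247, 242 and 234 CPM in controls and 161, 158, 163 and 196 CPM at Day 0, so every Day 2 library lay above every Day 0 library. Sox9 went the other way, with 89.9 to 119 CPM under compression and 86.4 to 99.4 CPM in controls, against 123 to 133 CPM at Day 0. Krt19, a keratin of epithelium and mesothelium, averaged 119 CPM under compression and 99.6 CPM in controls, against 33.9 CPM at Day 0, and Krt7 averaged 111 CPM under compression and 114 CPM in controls, against 40.7 CPM at Day 0. Mesothelium, which also carries some junction proteins, had 4 of 8 markers higher under compression (50%) and 5 of 8 in controls (62.5%). Mesothelin (Msln) averaged 23.3 CPM under compression and 17.4 CPM in controls, against 1.06 CPM at Day 0. Of 12 mesenchyme markers 3 rose and 5 fell under compression (25% and 41.7%), and 1 rose and 7 fell in controls (8.33% and 58.3%). The share of them that rose under compression was near that over all genes. Of 10 leukocyte markers 9 rose under compression (90%) and 6 in controls (60%), with 0 falling in either. Of 7 markers of squamous and oesophageal epithelium tested, 4 rose under compression (57.1%) and 2 in controls (28.6%). Their summed levels were 18.04 to 24.5 CPM under compression and 17.9 to 23.6 CPM in controls, against 11.7 to 14.4 CPM at Day 0. The part of each cell type in the levels of the junction genes was not tested.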

How the data were processed

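The 12 libraries are held in 1 table of raw counts for each gene symbol, as deposited by the authors. Per the labels' protocols, library construction used KAPA mRNA HyperPrep. Per the submitters' processing notes, fastp, STAR and the mm10 build were used; tool versions, counting method, annotation and strandedness are unstated there. Groups and replicate numbers come from the sample titles. Genes were kept by filterByExpr (min.count 10, min.total.count 15), which left 15246, and all 12 libraries entered 1 edgeR 4.0.16 quasi-likelihood fit (R 4.3.3, TMM scaling, robust dispersion, group as the only term). Benjamini-Hochberg adjustment ran over every gene in the fit, with 0.05 as the threshold; adjusted p-values come from this fit unless another tool is named. SE is the size of the log2 fold change divided by the square root of F, and 95% intervals use the moderated degrees of freedom. A count of 0 allows up to 3 counts, 0.0899 to 0.214 CPM per library, for counting error only. Exon lengths and positions come from GENCODE M21 (GRCm38, all 42 symbols matched) and promoters from RefSeq (GRCm38.p6).

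The 42 genes, the other lists and the tests were chosen with earlier results of these data known. Some of the other lists share genes, so their counts are not independent. Krt8 and Krt18 are in the desmosome and lung epithelium lists, and Krt19 is in the lung epithelium and mesothelium lists. Cldn5 and Esam are in the endothelium list as well as in those of claudins and tight junction genes. Twist1 is in the transition and mesenchyme lists. Values in every library are given for 10 of the genes picked by role, for up to 6 with the largest rise and 6 with the largest fall past the threshold in each comparison, and, between compression and control, for the 6 with the smallest p; of other lists at most the 3 genes with the smallest p per comparison are named. Elf3, Cldn23, Nkx2-1, Sftpc, Sox9, Krt5, albumin, Xist, Rn45s and the genes given only as group means fall outside that rule and were chosen after their values were seen. The fit was tested on simulated data before use. Alternatives were DESeq2 1.42.0 size factors, no low-count filter, DESeq2, limma-voom with quality weights (limma 3.58.1), only the 8 libraries compared, a replicate block, compression replicates 2 and 3 summed, and leaving out each library; quality weights with those replicates summed were added after seeing the data. The labels do not say that equal replicate numbers mark shared animals, and the numbers were not taken as pairs. Correlations of equal-numbered libraries across groups ran from -0.181 to 0.166. Libraries of unequal number were not correlated, so these values cannot settle the pairing.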

Additional observations from a re-analysis of the deposited data

Results flagged for a closer look

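Over 42 genes and 3 groups, 126 sets of 4 libraries were looked at for a single library far from the other 3, and 8 stood out, where chance gives about 1 in 20. Under compression, Tjp1 in replicate 3 was high at 299.3 CPM (the other 3 at 286.6 to 288.1), Grhl1 in replicate 1 was high at 13.61 CPM (9.844 to 10.39), and Cldn8 in replicate 4 was low at 4.145 CPM (6.504 to 6.883). In controls, Cldn1 in replicate 3 was low at 10.54 CPM (11.84 to 12.07), Rab25 in replicate 4 was low at 18.2 CPM (20.12 to 20.18), and Spint1 in replicate 2 was high at 59.7 CPM (54.32 to 54.53). At Day 0, Cldn7 in replicate 2 was high at 38.22 CPM (33.38 to 33.58), and Pkp3 in replicate 1 was low at 7.701 CPM (10.11 to 10.48).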

How the results depend on the processing

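Between compression and control, 0 of the 42 genes passed with edgeR, and 0 passed with DESeq2, which called 71 genes in all. At an unadjusted p under 0.05, edgeR gave 10 of the 42. Leaving out a library of these 2 groups gave 2 to 14, and summing compression replicates 2 and 3 gave 5. Over all genes, edgeR called 0, and 4 with only the 8 libraries compared; leaving out a library gave 0 to 53 genes, the most without control replicate 4, the library with liver transcripts, and 19 without compression replicate 1, with 0 of the 42 in each. limma-voom with quality weights called 1913 genes and 9 of the 42, and with compression replicates 2 and 3 summed, 191 genes and 0 of the 42; the cause was not tested. Against Day 0 the 38 control calls became 35 to 37 when a library was left out, and the 37 compression calls became 36 to 37. With a replicate block, 0, 37 and 37 of the 42 passed (compression against control, control against Day 0, compression against Day 0). Over all genes the block called 0, 6569 and 7895 in the same order, against 0, 6131 and 7489 without it. The replicate numbers are not taken as pairs.

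The Dsp call under compression against Day 0 held with DESeq2 (adjusted p = 0.0478) and was lost with quality weights and the summed replicates (0.139). Sign changes included the following, and the cause was not tested. Between compression and control, Cdh1 was 0.0004394 with DESeq2 size factors, 0.005406 with no low-count filter, 0.004794 with only the 8 libraries, 0.05031 with quality weights and 0.03563 with those and the summed replicates. Cldn6 was 0.005019 with no filter, 0.01367 with quality weights, 0.005633 with the 8 libraries and 0.0009475 with the replicate block, and Ocln was 0.08075 with quality weights and 0.04084 with the summed replicates as well. Leaving out a library gave -0.02678 to 0.04703 for Cdh1, -0.01496 to 0.06151 for Epcam, -0.04725 to 0.0751 for Cldn6 and -0.05775 to 0.02709 for Ocln, and Pkp1, at 0.22 with all libraries, was -0.00017 without control replicate 3. In controls against Day 0, Cldn6 was -0.002156 with DESeq2 size factors, -0.0003066 with DESeq2 and -0.06915 to 0.05342 without single libraries, and Tjp1 was -0.1169 to 0.02158. Under compression against Day 0, Cldn6 was -0.002344 with DESeq2 size factors, -0.001442 with DESeq2, -0.001809 with replicates 2 and 3 summed, -0.01724 with quality weights as well, and -0.04896 to 0.04179 without single libraries. Pkp1 had too few counts to be tested when only the 8 libraries of a comparison with Day 0 were used.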
